A study of Mus musculus with 10 samples.

Results

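The genes described here are 9 genes linked to Parkinson disease or belonging to the synuclein family: Sncb, Lrrk2, Pink1, Park7, Vps35, Fbxo7, Pla2g6, Uchl1 and Atp13a2. They were taken from the deposited table by their gene symbol, and they are 9 of its 18464 genes. The question put to them is which are held on the ribosomes of midbrain astrocytes and which by other cells, neurons above all. The libraries are 5 of the astrocyte fraction and 5 of input, all polyA RNA-seq from the ventral midbrain, that is the substantia nigra pars compacta and the ventral tegmental area, of naive Aldh1l1-NuTRAP mice. In these mice a ribosome tag is placed by way of the Aldh1l1 promoter, which in brain is active mostly in astrocytes. The astrocyte fraction is the RNA pulled down with the tagged ribosomes. The input is the RNA of the same kind of tissue before the pull-down, with all cell types in it. Both groups therefore come from mice that carry the tag. The libraries carry the title numbers 88, 92, 976, 981 and 982, each shared by 1 astrocyte fraction library and 1 input library. Whether each number is an animal of its own is not said in the labels. The p-values therefore stand for the spread among these samples only, and that spread may be technical.

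Parkinson disease is the loss of dopamine neurons of the substantia nigra, and its inherited forms point to a few cell functions. PINK1 marks damaged mitochondria for removal by phosphorylating ubiquitin, DJ-1 (the product of Park7) protects against oxidants and reactive aldehydes, and the calcium-independent phospholipase A2 encoded by Pla2g6 remodels membrane lipids. LRRK2 is a kinase of Rab GTPases, VPS35 the core of the retromer that returns cargo from endosomes, and ATP13A2 a lysosomal polyamine transporter. FBXO7 is a substrate adaptor of SCF ubiquitin ligases, UCHL1 a ubiquitin hydrolase abundant in neurons, and beta-synuclein, encoded by Sncb, a presynaptic protein.

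The total of expected counts was 3845554 in the astrocyte fraction library 92, 24479136 to 26924406 in the other astrocyte fraction libraries and 21812193 to 30878894 in input. The labelled cell type was checked against marker lists, summed in CPM (counts relative to library size, scaled by the TMM method so that libraries can be compared). The 20 astrocyte markers summed to 38999.8 to 56842 CPM in the astrocyte fraction and 6867 to 7594 CPM in input. The 18 pan-neuronal markers summed to 2316 to 2939 CPM in the astrocyte fraction, against 10669 to 12077 CPM in input. The fraction is therefore enriched for astrocyte RNA and still holds RNA of neurons. Choroid plexus transcripts, from the tissue that secretes cerebrospinal fluid, stood apart in 2 title numbers. Their 6 measured markers summed to 12680 CPM in astrocyte fraction 976 and 2658 CPM in astrocyte fraction 982, against 102 to 109 CPM in the remaining 3. In input they summed to 3289.9 CPM in library 976 and 681 CPM in library 982, against 26.7 to 38.6 CPM in the others. The same 2 numbers were lowest in the 12 dopamine neuron markers, which summed to 84.1 CPM (976) and 101 CPM (982) in the astrocyte fraction, against 182 to 335 CPM in the remaining 3. In input those markers summed to 501 CPM (976) and 513 CPM (982), against 989 to 1989 CPM in the others. Results that rest on those numbers are given below with and without them.

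All 9 genes passed the filter on low counts. A gene was called when its Benjamini-Hochberg adjusted p from edgeR's quasi-likelihood test over 17672 genes was under 0.05. Of the 9 genes, 4 were higher in the astrocyte fraction (Pink1, Park7, Pla2g6 and Lrrk2), where 33.1% of all tested genes were called higher. Another 4 were lower (Uchl1, Sncb, Atp13a2 and Fbxo7), where 37.5% of all tested genes were called lower, and Vps35 was not called. As 70.6% of all genes were called in either direction, a call sets no gene apart, and the sizes of the differences say more. Without the numbers 976 and 982, 4 genes were higher (Pink1, Park7, Pla2g6 and Vps35) and 3 lower (Uchl1, Sncb and Atp13a2). Over all genes that fit called 5868 higher and 5862 lower, against 5858 higher and 6625 lower with all libraries. The fraction and input libraries did not overlap in CPM for 6 of the 9 genes, against 58.2% of all tested genes. The median of the log2 fold change (astrocyte fraction over input) was 0.18 for the 9 genes and -0.06 for all tested genes. In a bulk sample, fewer cells of a type and less RNA per cell cannot be told apart. The fraction is RNA pulled down with ribosomes, while the input is RNA from before the pull-down. Cell type, ribosome binding and carry-over in the pull-down therefore cannot be told apart in these differences.

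**Figure D1:**
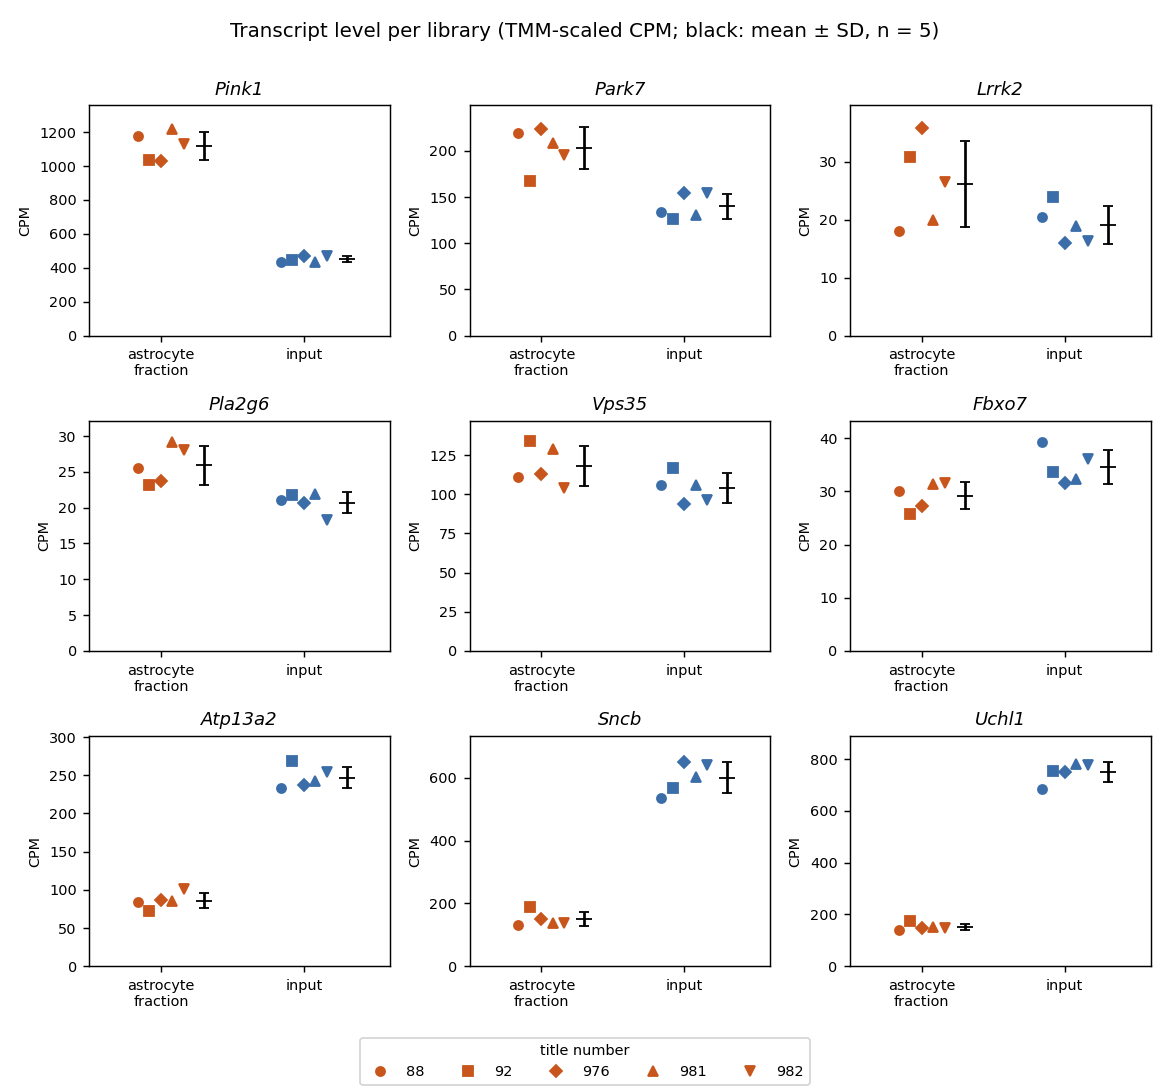
Level of each of the 9 genes in every library, in TMM-scaled CPM on a linear axis from 0, with the astrocyte fraction at the left of input in each panel. Marker shapes give the title number, and the black bars the mean ± SD of 5 libraries. Pink1 lies at 1028 to 1218 CPM in the astrocyte fraction and 435 to 470.3 CPM in input, Uchl1 at 141 to 173 CPM in the astrocyte fraction and 684 to 782 CPM in input, and the Lrrk2 groups overlap.

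The promoters of the 2 genes with the highest and the 2 with the lowest log2 fold change are shown because they stand at the ends of the order. Each is 250 bases ending just before the RefSeq start in the build GRCm38.p6, on the gene's own strand, 5′ to 3′. The windows are chr4:138326297-138326546 (minus strand) for Pink1, chr4:150909922-150910171 (minus strand) for Park7, chr13:54766596-54766845 (minus strand) for Sncb and chr5:66675871-66676120 (plus strand) for Uchl1. The Park7 window lies wholly inside the span of its gene (chr4:150897133-150914437), so its RefSeq start is an internal one. The Pink1 and Uchl1 windows end slightly inside the spans of their genes. Capitals mark GC boxes (GGGCGG) and CCAAT boxes (CCAAT), read on either strand.
Pink1: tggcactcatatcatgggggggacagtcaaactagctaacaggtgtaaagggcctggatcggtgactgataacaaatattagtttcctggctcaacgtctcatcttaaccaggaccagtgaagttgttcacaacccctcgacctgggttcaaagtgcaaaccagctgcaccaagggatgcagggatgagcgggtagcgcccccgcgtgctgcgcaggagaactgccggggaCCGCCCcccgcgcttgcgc
Park7: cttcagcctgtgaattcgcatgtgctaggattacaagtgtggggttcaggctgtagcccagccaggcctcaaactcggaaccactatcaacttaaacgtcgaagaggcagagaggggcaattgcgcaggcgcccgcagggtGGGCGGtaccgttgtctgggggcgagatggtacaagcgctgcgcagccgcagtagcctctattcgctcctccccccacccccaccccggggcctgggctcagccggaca
Sncb: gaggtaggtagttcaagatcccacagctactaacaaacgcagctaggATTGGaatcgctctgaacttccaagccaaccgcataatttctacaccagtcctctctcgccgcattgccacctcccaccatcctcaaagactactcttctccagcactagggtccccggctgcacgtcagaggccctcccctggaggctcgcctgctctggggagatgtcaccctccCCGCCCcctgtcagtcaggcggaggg
Uchl1: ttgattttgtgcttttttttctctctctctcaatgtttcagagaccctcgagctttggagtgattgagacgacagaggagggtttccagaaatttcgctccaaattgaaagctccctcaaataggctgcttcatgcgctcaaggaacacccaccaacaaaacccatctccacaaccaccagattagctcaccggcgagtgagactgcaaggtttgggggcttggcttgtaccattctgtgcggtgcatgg

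Pink1 held a GC box 19 bases before the start and Park7 one 109 bases before it. Sncb held a GC box 26 bases and a CCAAT box 203 bases before the start, so a GC box stood in genes at both ends of the order. The Uchl1 window held none of the 9 motifs searched, and its GC content was 48.8% with 7 CpG dinucleotides. The other 3 windows held 57.2% GC (Pink1, 13 CpG), 62.4% GC (Park7, 16 CpG) and 58.8% GC (Sncb, 10 CpG), against medians of 52.4% GC and 6 CpG over 32851 promoter windows of the same length. Of those windows, 32.7% hold GGGCGG and 33.8% hold CCAAT. The other 7 motifs, also read on both strands, were the TATA box TATAAA (12.4% of windows), the E-box CACGTG (6.02%), the cAMP response element TGACGTCA (1.55%), the antioxidant response element core TGACNNNGC (10.2%), the REST motif TTCAGCACC (0.301%), the full palindromic NFI site (0.0365%) and the Ets core CCGGAAG (6.91%). The cAMP and antioxidant elements share their first 4 letters, so the same bases can begin either. None of these 7 was found in any of the 8 genes whose promoter was read, namely all but Vps35. GC boxes also stood in Lrrk2, Pla2g6 and Atp13a2, and of the 3 in Pla2g6 a pair overlapped each other. A match is only a run of letters and says nothing of a factor being bound.

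Pink1, the kinase that marks damaged mitochondria, had the largest positive difference of the 9. It lies at chr4:138313409-138326307 on the minus strand (mm10, ENSMUSG00000028756). Pink1 was at 1179, 1037, 1028, 1218 and 1129.9 CPM in the astrocyte fraction libraries 88, 92, 976, 981 and 982, against 435, 443, 470.3, 435 and 470.3 CPM in input libraries of the same order. Every astrocyte fraction library was above every input library, by a wide gap. The log2 fold change was 1.31 ± 0.06 (SE, n = 5 per group), a 2.48-fold difference with an edgeR adjusted p of 3.79e-09, and it was higher in 5 of 5 title numbers. Pink1 held 6.70% of its exon bases in common with Gm27646 and Mir7019 on the same strand, so a small part of its counts is uncertain.

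Park7 lies at chr4:150897133-150914437 on the minus strand (ENSMUSG00000028964). Its level was 219, 167, 224, 208 and 196 CPM in the astrocyte fraction, against 134, 126, 154, 131 and 154 CPM in input, in the same library order. The groups did not overlap, and the shallow astrocyte fraction library 92 was the lowest of its group. The log2 fold change of Park7 was 0.54 ± 0.10 (SE, n = 5 per group; edgeR adjusted p = 0.00016), a 1.46-fold difference found in 5 of 5 title numbers. With libraries scaled to their total counts, its log2 fold change was 0.26 (adjusted p = 0.0377). That scaling put the all-gene median log2 fold change at -0.34 and the share of called genes that were higher to 34.0%, against 46.9% with TMM.

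Pla2g6, the phospholipase gene mutated in infantile neuroaxonal dystrophy and in a form of dystonia-parkinsonism, lies at chr15:79286228-79328390 on the minus strand (ENSMUSG00000042632). It was at 25.5, 23.2, 23.7, 29.2 and 28.1 CPM in the astrocyte fraction, against 21.1, 21.8, 20.7, 21.9 and 18.3 CPM in input. The groups were close but did not overlap. The log2 fold change of Pla2g6 was 0.33 ± 0.08 (SE, n = 5 per group; edgeR adjusted p = 0.00862), 1.26-fold, and higher in 5 of 5 title numbers. The call was lost with total count scaling (log2 fold change 0.05, adjusted p = 0.711) and without title number 982 (0.26, adjusted p = 0.0555).

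Lrrk2, the Rab kinase, lies at chr15:91673175-91816120 on the plus strand (ENSMUSG00000036273) and was the most uneven of the 9. It was at 18, 30.8, 35.8, 20 and 26.6 CPM in the astrocyte fraction, against 20.4, 24.0, 15.9, 18.9 and 16.3 CPM in input. The groups overlapped, and the highest astrocyte fraction library was 976, where the choroid plexus markers were also highest. Within title numbers the ratio of astrocyte fraction to input was 0.880 for 88, 1.28 for 92, 2.25 for 976, 1.06 for 981 and 1.64 for 982. The largest ratios fell in 976 and 982, the numbers with high choroid plexus and low dopamine neuron markers. The log2 fold change of Lrrk2 was 0.45 ± 0.22 (SE, n = 5 per group; edgeR adjusted p = 0.0496), higher in 4 of 5 title numbers. Without 976 and 982 it was 0.18 (adjusted p = 0.487), and with total count scaling 0.17 (adjusted p = 0.446). The call was also lost with a filter at a mean CPM of 5 (0.36, adjusted p = 0.103), in limma on the authors' log2 values (0.40, adjusted p = 0.0797) and in limma-voom (0.37, adjusted p = 0.0984). The part of either marker set in the Lrrk2 level was not tested. The Lrrk2 call was also lost in 7 of the 10 fits that left out 1 library, with adjusted p from 0.0642 to 0.104: those without the astrocyte fraction libraries 92, 976 or 982 or the input libraries 88, 976, 981 or 982. It was lost as well without both libraries of 92, 976 or 982. The astrocyte fraction library 92 rests on 105 Lrrk2 counts, against 441 to 897 counts in the other 4.

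Vps35, the retromer core subunit, lies at chr8:85260392-85299802 on the minus strand (ENSMUSG00000031696). It was at 111, 134, 113, 129 and 104 CPM in the astrocyte fraction, against 106, 117, 94.1, 106 and 96.1 CPM in input. The groups overlapped, although each astrocyte fraction library was above the input library of its own number. Orc6 overlaps 1.92% of its exon bases on the opposite strand. The log2 fold change of Vps35 was 0.18 ± 0.09 (SE, n = 5 per group; edgeR adjusted p = 0.0845) and passed the threshold with the title number as a replicate block (0.18, adjusted p = 0.0226). With total count scaling its sign turned (-0.11, adjusted p = 0.272). It was also called without the numbers 976 and 982 (0.29, adjusted p = 0.0293), without both libraries 976 (0.25, adjusted p = 0.0457) and without astrocyte fraction library 976 (0.27, adjusted p = 0.0196), astrocyte fraction library 982 (0.24, adjusted p = 0.0332) or input library 92 (0.23, adjusted p = 0.0398).

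Fbxo7, the SCF adaptor, lies at chr10:86021972-86051873 on the plus strand (ENSMUSG00000001786). It was at 30.0, 25.8, 27.2, 31.4 and 31.5 CPM in the astrocyte fraction, against 39.4, 33.6, 31.5, 32.4 and 36.1 CPM in input. The groups met at the edge, with the highest astrocyte fraction library level with the lowest input library. A230060F14Rik overlaps 5.08% of its exon bases on the opposite strand. The log2 fold change was -0.23 ± 0.08 (SE, n = 5 per group; edgeR adjusted p = 0.0344), lower in the astrocyte fraction in 5 of 5 title numbers. The Fbxo7 call was lost without the numbers 976 and 982 (-0.14, adjusted p = 0.322) and, among fits without 1 library, without astrocyte fraction library 976 (-0.12, adjusted p = 0.292), 88 (adjusted p = 0.0598) or 92 (adjusted p = 0.0697) or input library 88 (adjusted p = 0.0985) or 982 (adjusted p = 0.0764). Leaving out both libraries of 88, 92, 976 or 982 also ended it (adjusted p from 0.0677 to 0.194). It was -0.21 with no filter on low counts (adjusted p = 0.0529) and -0.52 with total count scaling (adjusted p = 0.000273).

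Atp13a2, the lysosomal transporter gene mutated in Kufor-Rakeb syndrome, lies at chr4:140986873-141007330 on the plus strand (ENSMUSG00000036622). It was at 84.7, 72.8, 86.6, 85.4 and 101 CPM in the astrocyte fraction, against 233, 269, 237, 243 and 254 CPM in input. The groups lay far apart. The astrocyte fraction retained 35.1% of the input level, a log2 fold change of -1.51 ± 0.08 (SE, n = 5 per group; edgeR adjusted p = 4.69e-09), lower in 5 of 5 title numbers.

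Sncb, encoding beta-synuclein, lies at chr13:54758860-54766595 on the minus strand (ENSMUSG00000034891). It was at 132, 189, 152, 138 and 139 CPM in the astrocyte fraction, against 535, 569, 652, 604 and 641 CPM in input. The lowest input library was well above the highest astrocyte fraction library, which was 92. The fraction retained 24.9% of the input level of Sncb (log2 fold change -2.01 ± 0.11, SE, n = 5 per group; edgeR adjusted p = 2.21e-09), lower in 5 of 5 title numbers.

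Uchl1, the neuronal ubiquitin hydrolase gene, lies at chr5:66676091-66687234 on the plus strand (ENSMUSG00000029223) and fell furthest of the 9. It was at 141, 173, 146, 149.9 and 149.7 CPM in the astrocyte fraction, against 684, 756, 751, 782 and 778 CPM in input. The astrocyte fraction libraries lay close together apart from 92, and none came near the input. The fraction retained 20.2% of the input level of Uchl1 (log2 fold change -2.31 ± 0.06, SE, n = 5 per group; edgeR adjusted p = 7.9e-11), lower in 5 of 5 title numbers. Uchl1os overlaps 18.1% of the exon bases of Uchl1 on the opposite strand, and reads of the pair cannot be told apart unless the counting used strand.

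**Figure D2:**
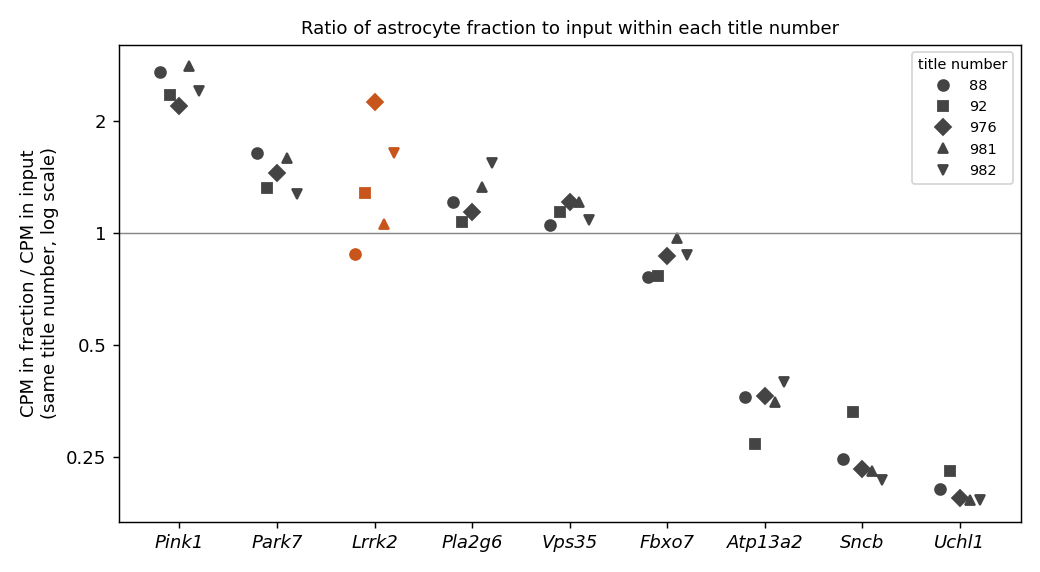
Ratio of the CPM in the astrocyte fraction to that in the input library of the same title number, on a log axis, for each of the 9 genes in order of log2 fold change. Each point is 1 title number, the line marks a ratio of 1, and Lrrk2 is in orange. The Pink1 ratios run from 2.19 to 2.80 and the Uchl1 ratios from 0.192 to 0.229, while those of Lrrk2 spread from 0.880 to 2.25.

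Levels were compared between genes per length, as CPM per kilobase of exon. The length is that of all annotated exons of a gene merged, not that of the transcript expressed, so the order depends on the annotation. In the astrocyte fraction Pink1 stood first at 418 ± 31.5 CPM per kilobase (SD, n = 5), and no other member overlapped it. Uchl1 followed at 93.1 ± 7.69, Park7 at 81.9 ± 9.16 and Sncb at 69.9 ± 10.6 CPM per kilobase (SD, n = 5 each), where neighbours overlapped in range. Atp13a2 at 14.3 ± 1.66 and Vps35 at 13.3 ± 1.43 CPM per kilobase overlapped each other, as did Pla2g6 at 4.77 ± 0.491 and Fbxo7 at 4.72 ± 0.414. Lrrk2 was lowest at 2.22 ± 0.625 CPM per kilobase. In input the order was Uchl1 (459.8 ± 24.3 CPM per kilobase), Sncb (280 ± 22.8), Pink1 (169 ± 6.79), Park7 (56.4 ± 5.35), Atp13a2 (41.2 ± 2.39), Vps35 (11.7 ± 1.05), Fbxo7 (5.6 ± 0.513), Pla2g6 (3.82 ± 0.27) and Lrrk2 (1.61 ± 0.282), and no neighbours overlapped in range. Pink1 thus took the place at the top of the fraction that Uchl1 held in input. Uchl1 and Sncb were still among the 4 highest in the fraction, at levels far below those in input.

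The log2 fold changes were then set beside those of cell type markers. All 9 genes were below all 20 astrocyte markers, whose log2 fold changes ran from 2.42 to 3.39 with a median of 3.07. The highest of those 20 was Cldn10 (3.39), a claudin, and another was Mlc1 (3.16), a membrane protein of astrocyte endfeet. Pink1 thus lies between the general run of genes and the markers, and 88.0% of tested genes had a lower log2 fold change. Pink1, Park7, Lrrk2, Pla2g6, Vps35 and Fbxo7 were above all 18 pan-neuronal markers, which ran from -2.61 to -1.39 with a median of -2.29, among them Eno2 (-2.42), neuronal enolase, and Tubb3 (-2.57), a neuronal tubulin. Atp13a2 was above 17 of the 18, Sncb above 16 and Uchl1 above 8.

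**Figure D3:**
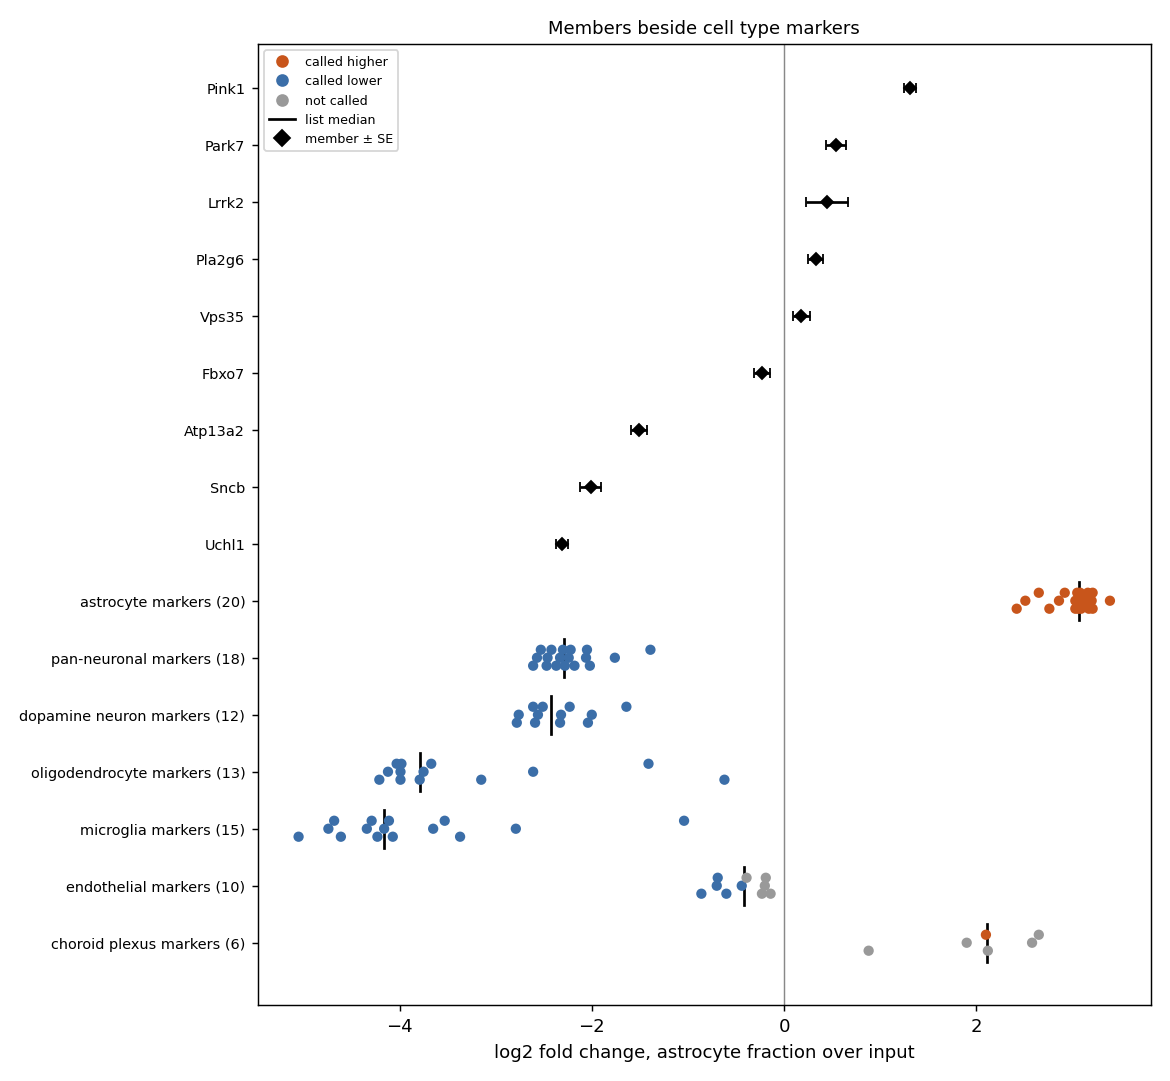
Log2 fold change, astrocyte fraction over input, of the 9 genes (diamonds, bars ± SE) above the genes of 7 marker lists (points coloured by call, vertical bar at the list median). Pink1 at 1.31 stays left of the 20 astrocyte markers (2.42 to 3.39), and Uchl1 at -2.31 lies within the 18 pan-neuronal markers (-2.61 to -1.39).

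Markers of other cells were read in the same way. The 12 dopamine neuron markers were all lower, with a median of -2.42, and included Nr4a2 (-2.32), a transcription factor of these neurons, and Drd2 (-2.33), their dopamine autoreceptor. The 13 oligodendrocyte markers (median -3.79, with Myrf at -4.03 and Ugt8a at -4.12) and the 15 microglia markers (median -4.16, with Csf1r at -4.68 and Tmem119 at -4.16) were all lower too. Neuronal RNA was thus retained at 20.4% at its list median, against 7.25% for oligodendrocytes and 5.6% for microglia. Of 10 endothelial markers, 5 were lower and 5 not called (median -0.42, Esam -0.70, Kdr -0.69, the last not called without astrocyte fraction library 976 or 981), and with total count scaling 9 were lower and with libraries left out as few as 2. Of 6 measured choroid plexus markers, 1 was higher (Otx2, 2.10) and 5 were not called (median 2.11), and with the title number as a replicate block 3 were higher. No astrocyte, neuronal or choroid plexus marker was at 0 in any library, while 6 microglia markers and 1 oligodendrocyte marker had no count in at least 1 library.

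Whether each gene moved with the neuronal or the astrocyte markers was tested within libraries, by a ratio that no scaling of the library can change. For each library the log2 CPM of the gene minus the mean log2 CPM of the markers was taken, and the groups were compared by a two-sided exact permutation test. With 5 libraries against 5 the test allows no p under 0.00794, and p-values were adjusted over 18 tests. Uchl1 relative to the pan-neuronal mean was 0.45 in the astrocyte fraction and 0.52 in input, a difference of -0.07 ± 0.04 (SE, n = 5 per group; exact p = 0.127, adjusted p = 0.127). It was negative in 5 of 5 title numbers and passed without astrocyte fraction library 981 (-0.09, adjusted p = 0.0168) or both libraries 981 (-0.07, adjusted p = 0.0303). Sncb was slightly better retained than the neuronal markers, at 0.42 in the astrocyte fraction and 0.19 in input (difference 0.23 ± 0.07, SE, n = 5 per group; exact p = 0.0159, adjusted p = 0.0168, positive in 5 of 5 numbers). The call for Sncb was lost without title numbers 88 (0.23, adjusted p = 0.0605), 92 (0.16, adjusted p = 0.0605) or 981 (0.24, adjusted p = 0.0571). With a title number left out the exact test has fewer splits and a larger smallest p. A lost call there need not mean a smaller difference. Atp13a2 was retained better than the neuronal markers by 0.71 ± 0.11 log2 units, at -0.37 in the astrocyte fraction and -1.09 in input.

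For the other 6 genes the difference from the pan-neuronal mean was larger: 2.0 for Fbxo7, 2.42 for Vps35, 2.56 for Pla2g6, 2.66 for Lrrk2, 2.77 for Park7 and 3.55 for Pink1. Like Atp13a2, each had the smallest p that the exact permutation test allows (adjusted p = 0.00893) and was positive in 5 of 5 numbers. A gene at the all-gene median log2 fold change (-0.06) also lies above the pan-neuronal median (-2.29), so a difference in this direction is common. Relative to the astrocyte mean all 9 genes were lower in the astrocyte fraction than in input, with differences of -1.68 for Pink1, -2.46 for Park7, -2.57 for Lrrk2, -2.68 for Pla2g6, -2.81 for Vps35, -3.24 for Fbxo7, -4.52 for Atp13a2, -5.00 for Sncb and -5.30 for Uchl1 (exact permutation test, adjusted p = 0.00893 each). No member was thus enriched as far as the astrocyte markers. Most genes would give the same direction, as 88.0% of tested genes had a lower log2 fold change than Pink1. The share of all genes passing either test was not computed.

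The 9 genes were also compared with each other in the same way over all 36 pairs, of which 30 passed. How often pairs of any genes would pass was not computed, and 70.6% of all genes were called between the groups. Of the 30, the pair of Lrrk2 and Fbxo7 (0.67, exact permutation test, adjusted p = 0.0394) was lost in 7 of 10 comparisons that left out 1 library (astrocyte fraction 92, 976 or 982 and input 88, 976, 981 or 982, adjusted p from 0.0571 to 0.0857). Leaving out title numbers 88, 976, 981 or 982 also ended it (exact permutation test, adjusted p from 0.0735 to 0.137). The pair of Lrrk2 and Pink1 (-0.88, exact permutation test, adjusted p = 0.0306) was lost without input library 88, 92 or 981 (adjusted p from 0.0571 to 0.0690). That pair was also lost without title numbers 88, 92, 981 or 982 (exact permutation test, adjusted p from 0.0735 to 0.106). Pink1 rose above Park7 by 0.77 log2 units (exact permutation test, adjusted p = 0.0110). Park7, Lrrk2, Pla2g6 and Vps35 could not be set in order among neighbours, with differences of 0.11 between Park7 and Lrrk2 (adjusted p = 0.686), 0.11 between Lrrk2 and Pla2g6 (adjusted p = 0.690) and 0.13 between Pla2g6 and Vps35 (exact permutation test, adjusted p = 0.303). Vps35 was above Fbxo7 by 0.43 (adjusted p = 0.0212), Fbxo7 above Atp13a2 by 1.28 (adjusted p = 0.0110), Atp13a2 above Sncb by 0.48 (adjusted p = 0.0476) and Sncb above Uchl1 by 0.30 (exact permutation test, adjusted p = 0.0110). The step between Atp13a2 and Sncb was lost in 8 of the 10 comparisons that left out 1 library, all but those without a library 92, with adjusted p from 0.0571 to 0.0857. It was lost as well without title numbers 88, 976, 981 or 982 (exact permutation test, adjusted p from 0.133 to 0.166). Without astrocyte fraction library 92 the ratio of Vps35 to Pla2g6 did differ (-0.22, adjusted p = 0.0381). So did the ratio of Park7 to Vps35 (0.47, exact permutation test, adjusted p = 0.0461). The step between Vps35 and Fbxo7 no longer passed without title numbers 88 (0.42), 976 (0.42) or 981 (0.45, exact permutation test, adjusted p = 0.0735 each). Those differences stayed close to the 0.43 of all libraries. With libraries left out the exact test has fewer splits, so a lost call need not mean a smaller difference.

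Genes that work beside each member were read from lists by function. Over all tested genes 33.1% were called higher and 37.5% lower, and the counts in every list below are to be read against those shares. In mitochondrial quality control, the field of PINK1, 15 of 30 genes were higher, 9 lower and 6 uncalled, and the median log2 fold change was 0.18, against -0.06 for all genes. Higher were Mfn1 (1.65), a mitofusin that joins outer membranes, and Oma1 (1.29), a protease of the inner membrane. Lower were Tomm70a (-1.20) and Tomm20 (-0.84), receptors of the outer membrane import complex through which the PINK1 precursor passes. Pink1 therefore did not move with a list that went one way. With total count scaling the list had 10 higher and 13 lower, where over all tested genes 4293 were higher and 8317 lower. List counts under that scaling, here and below, are to be read against this shift of all genes.

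In redox and glyoxal defence, the field of DJ-1, 19 of 24 genes were higher, 0 lower and 5 uncalled, and the median was 0.82. Over all tested genes 33.1% were higher, 37.5% lower and the median was -0.06. Prdx6, a peroxiredoxin, averaged 1278 ± 98.5 CPM in the astrocyte fraction and 155 ± 19.7 CPM in input (SD, n = 5 each), a log2 fold change of 3.04, and Cat, encoding catalase, reached 2.19. The median of this list was above the 0.54 of Park7. With total count scaling the split was 16 higher and 2 lower.

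Among relatives, Rab substrates and regulators of LRRK2, 13 of 21 genes were higher, 5 lower and 3 uncalled, and the median was 0.63. Rab29, a Rab protein that recruits LRRK2 to the Golgi in cultured cells, was at 25.2, 24.6, 22, 24.2 and 23.2 CPM in the astrocyte fraction, against 3.95, 3.13, 4.72, 4.62 and 2.41 CPM in input. Every astrocyte fraction library was far above every input library, and the log2 fold change of 2.64 ± 0.18 (SE, n = 5 per group; edgeR adjusted p = 2.08e-08) is within the range of the astrocyte markers. Rab5c (1.65), an early endosome Rab, was higher, and Mapk8ip3 (-1.73), a motor adaptor also called JIP3, and Ppm1h (-1.41), a phosphatase that acts on Rab proteins, were lower. Eme2 shares 10.7% of the exon bases of Mapk8ip3 on the same strand, and Mrps34 and Nme3 overlap 9.75% on the opposite strand. Lrrk1, the paralog of Lrrk2, was not called (-0.31 ± 0.28, adjusted p = 0.322), at 2.92 ± 1.10 CPM in the astrocyte fraction and 3.68 ± 0.971 CPM in input (SD, n = 5 each). The Lrrk2 to Lrrk1 ratio differed by 0.79 ± 0.45 log2 units (SE, n = 5 per group; exact permutation test, adjusted p = 0.159 over 12 pairs), and by 1.1 without astrocyte fraction library 88 (adjusted p = 0.0317).

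The retromer is built from VPS35, VPS29 and either VPS26A or VPS26B. Vps29 was called higher (0.20, edgeR adjusted p = 0.0129) and so was Vps26a (0.43, adjusted p = 0.000317), while Vps26b was not (0.13, adjusted p = 0.0753), though it was without astrocyte fraction library 976 (0.21, adjusted p = 0.0143) or 982 (0.18, adjusted p = 0.0227). With total count scaling Vps26a lost its call (0.15, adjusted p = 0.0927), Vps29 turned sign (-0.09, adjusted p = 0.210), as did Vps35, and Vps26b passed as lower (-0.15, adjusted p = 0.0393). Vps29 was also not called with a filter at a mean CPM of 5 (0.11, adjusted p = 0.110) or without both libraries 88 (0.19, adjusted p = 0.0640), while Vps26b was called higher with no filter on low counts (0.15, adjusted p = 0.0430). Relative to its partners Vps35 differed by -0.01 ± 0.10 from Vps29 (exact permutation test, adjusted p = 0.913), by 0.05 ± 0.07 from Vps26b (adjusted p = 0.600) and by -0.26 ± 0.05 from Vps26a (adjusted p = 0.0119; SE, n = 5 per group). The ratio to Vps26a was lower in the astrocyte fraction in 5 of 5 numbers. Of 20 genes of the retromer, sorting nexins and WASH complex, 12 were higher, 3 lower and 5 not called (median 0.39), which with total count scaling became 5 higher and 6 lower. The sorting nexins Snx5 (1.56) and Snx3 (1.03) were higher, and Sort1 (-0.75), the cargo receptor sortilin, and Washc4 (-0.99), a WASH complex subunit, were lower.

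**Figure D4:**
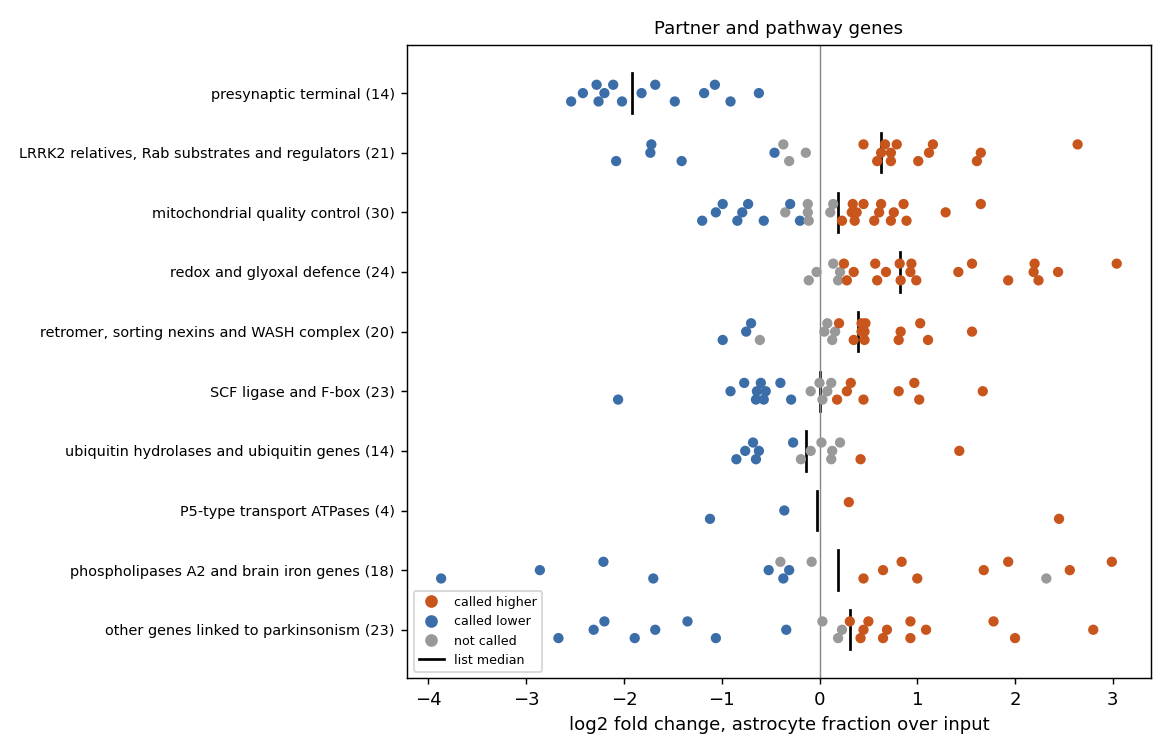
Log2 fold change, astrocyte fraction over input, of every tested gene in 10 function lists, coloured by call, with a vertical bar at each list median and the number of tested genes in parentheses. The presynaptic genes lie left of 0 (median -1.92), the redox genes mostly right of it (median 0.82), and the other lists span both sides.

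ATP13A2 belongs to the P5 transport ATPases, whose 4 other measured members split into 2 higher and 2 lower (median -0.03). Atp13a4, a relative of Atp13a2, was at 110.4, 107, 78.6, 140 and 94.2 CPM in the astrocyte fraction, against 21, 18.8, 16.8, 24.8 and 15.6 CPM in input. The groups lay far apart, in the opposite direction to Atp13a2, with a log2 fold change of 2.45 ± 0.18 (SE, n = 5 per group; edgeR adjusted p = 3.61e-08). The ratio of Atp13a2 to Atp13a4 differed by -3.96 ± 0.22 log2 units between astrocyte fraction and input (SE, n = 5 per group; exact permutation test, adjusted p = 0.0119), negative in 5 of 5 numbers. Atp13a3 (0.30, adjusted p = 0.0380), Atp13a1 (-0.36, adjusted p = 0.0248), the transporter of the endoplasmic reticulum, and Atp13a5 (-1.12, adjusted p = 0.0338) were called with little margin. With total count scaling Atp13a3 was at 0.02 (adjusted p = 0.918), which leaves 1 gene of the list higher. It was also not called with a filter at a mean CPM of 5 (0.21, adjusted p = 0.133), in limma on the authors' log2 values (0.27, adjusted p = 0.0554) or in limma-voom (0.27, adjusted p = 0.0584). Among fits without 1 library, the call was lost in 5 of 10 for Atp13a3 (astrocyte fraction 92 and input 88, 92, 976 and 982, adjusted p from 0.0505 to 0.0895). It was lost in 3 of 10 for Atp13a1 (astrocyte fraction 976 and input 88 and 92, adjusted p from 0.0512 to 0.123). It was lost in 7 of 10 for Atp13a5 (astrocyte fraction 92, 976, 981 and 982 and input 88, 92 and 981, adjusted p from 0.0628 to 0.0899). Atp13a5 was low, at 2.32 ± 1.75 CPM in the astrocyte fraction and 5.18 ± 1.55 CPM in input (SD, n = 5 each). The ratio of Atp13a2 to Atp13a3 differed by -1.82 and that to Atp13a1 by -1.12 log2 units (exact permutation test, adjusted p = 0.0119 each), and its ratio to Atp13a5 differed by -0.17 ± 0.52 (adjusted p = 0.814).

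Among phospholipases A2 and brain iron genes, the list around Pla2g6, 8 of 18 genes were higher, 7 lower and 3 not called (median 0.18). Pla2g7 (2.99), encoding a secreted hydrolase of platelet-activating factor, and Pla2g16 (1.68), a phospholipase of lipid metabolism, were higher. Fa2h (-3.87), a fatty acid hydroxylase of myelin lipids, and Fth1 (-1.70), the ferritin heavy chain, were lower. The antisense gene 1700071M16Rik overlaps 11% of the exon bases of Pla2g7. Pnpla8, the mitochondrial relative of Pla2g6, was higher (1.0), and Pla2g6 differed from it by -0.68 ± 0.12 log2 units (SE, n = 5 per group; exact permutation test, adjusted p = 0.0119).

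Of 23 SCF ligase and F-box genes, 8 were higher, 10 lower and 5 uncalled (median 0.00), and with total count scaling 4 were higher and 14 lower. Skp1a, encoding the SCF subunit that F-box proteins bind, was higher (1.02), so Fbxo7 fell relative to it by 1.26 log2 units (exact permutation test, adjusted p = 0.0119). Fbxo2 (1.67), an F-box gene for glycoprotein substrates, was higher, while Fbxo31 (-0.77) and Btrc (-0.65), encoding the F-box protein beta-TrCP, were lower.

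Of 14 ubiquitin hydrolase and ubiquitin genes, 2 were higher, 6 lower and 6 not called (median -0.14), and with total count scaling 1 was higher and 10 lower. The ubiquitin protease gene Usp2 (1.43) was among the higher. Lower were the deubiquitinase genes Usp5 (-0.76) and Otub1 (-0.68). The count of higher genes was 4 without astrocyte fraction library 976. Uchl3, a relative of Uchl1 in the same hydrolase family, was not called (-0.09 ± 0.08, adjusted p = 0.463) but passed as lower with total count scaling (-0.37, adjusted p = 0.00616), and Uchl5 was lower (-0.65, adjusted p = 2.72e-05). The ratio of Uchl1 to Uchl3 differed by -2.23 and that of Uchl1 to Uchl5 by -1.65 log2 units (exact permutation test, adjusted p = 0.0119 each).

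The 14 genes of the presynaptic terminal, where beta-synuclein resides, were all lower, with a median of -1.92. They ran from -2.54 to -0.62 and included Sv2a (-2.42) and Rab3a (-2.20), both of synaptic vesicles. Sncb, at -2.01, lay inside that range. Of 23 other genes linked to parkinsonism, 12 were higher, 8 lower and 3 not called (median 0.31). Slc30a10 (2.0), a manganese exporter, and Gigyf2 (1.78), an adaptor that represses translation, were higher. Synj1 (-1.89), encoding the synaptic vesicle phosphatase synaptojanin, was among the lower.

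For each of the 9 genes the genes with the most similar pattern over the 10 libraries were found, by the root mean square difference of centred log2 CPM. Pink1 was followed closely by Nudt19 (0.045), Park7 by Cluap1 (0.041) and Acp1 (0.053), and Pla2g6 by Abl2 (0.056) and Fam217b (0.064). Vps35 was nearest to Tmem87a (0.068) and Srsf1 (0.076), Fbxo7 to Dgcr14 (0.075) and Lcmt1 (0.077), and Atp13a2 to Rundc3a (0.072) and Tubb5 (0.074). Uchl1 was nearest to Chga (0.071), encoding chromogranin A of secretory granules. Sncb was nearest to Mllt11 (0.086) and Ywhah (0.113). Lrrk2 had the most distant neighbours, Ppp1r13l (0.144) and Ibtk (0.171).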

How the data were processed

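RNA was measured by polyA RNA-seq in 5 astrocyte fraction and 5 input libraries, prepared from 25 ng of RNA with a NEB Ultra II kit, per the labels. The authors deposited 1 table of 18464 genes with expected counts, not scaled, and a log2 value centred on input that the authors normalized. The build mm10 and the tools CASAVA 1.8 and DESeq are named, per the submitters' processing notes. Which aligner, counting tool and strand setting were used is not given in the sources used here. For each gene, 1 or both of the groups have 5 or more counts in each library, so a filter was applied before deposit.

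Expected counts were rounded and tested with edgeR 4.0.16 (R 4.3.3): filterByExpr at a minimum count of 10, TMM scaling, robust quasi-likelihood test, prior count 2, Benjamini-Hochberg adjusted p under 0.05. The filter removed 792 genes. The common biological coefficient of variation was 0.229. Standard errors come from log2 CPM of the 5 libraries of each group. Alternatives used DESeq2 1.42.0 and limma 3.58.1, and the edgeR step was tested on simulated data. A count of 0 allows up to 3 counts, which is 0.880 CPM in astrocyte fraction library 92, 0.120 to 0.136 CPM in the rest of that group and 0.0912 to 0.125 CPM in input, for counting error only.

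Libraries with the same title number deviated together from their group means (r from 0.258 to 0.568, against a mean of -0.097 for other numbers), and 4 of 5 astrocyte fraction libraries matched the input of their own number best. Astrocyte fraction 982 matched input 976 (0.345) better than input 982 (0.258). The deviations were centred within each group, so positive same-number values make the mean of the others negative. The -0.097 is therefore no separate evidence. Each same-number r was above 0.1, but so were some other-number values, such as 0.345 and 0.228 (astrocyte fraction 976 with input 982). By the 0.1 threshold the numbers were read as a pairing found in the data. That pairing entered only the ratios within title numbers, the replicate block and the sign-flip test. The main edgeR test and the exact permutation tests compared the groups without it.

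Gene positions are those of the table, and exon lengths and overlaps come from GENCODE M21. Sequences are from RefSeq, GRCm38.p6. The genes named are the 9 members, their relatives, up to 2 called genes in each direction with the smallest adjusted p in each list, and the 2 genes nearest to each member; 4 genes that this rule gives are not reported here. Members, lists, motifs and tests were chosen with earlier results of these data known.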

Additional observations from a re-analysis of the deposited data

Results flagged for a closer look

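Among 18 groups of 5 libraries (9 genes in 2 groups), 1 held a library far from the rest, and chance gives this in about 1 in 20 groups. Uchl1 was at 173 CPM in the astrocyte fraction library 92, against 141 to 149.9 CPM in the 4 others of that group. The gap to the nearest library was 0.721 of the group's range. Library 92 is the shallowest, with 3845554 expected counts, and Sncb was also highest there, at 189 CPM.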

How the results depend on the processing

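Direction and call held for Pink1, Park7, Atp13a2, Sncb and Uchl1 under all alternatives, which were another tool, scaling or filter, the authors' log2 values, a replicate block and the removal of libraries or title numbers. The number of the 9 genes called higher was 2 with total count scaling and 2 to 5 when replicates were left out (2 without both libraries of 982, 5 without input library 92), against 4 in the main comparison. Over all genes, 4293 were called higher with total count scaling, against 5858 in the main comparison. Without both libraries of 982 that number was 5567, and without input library 92 it was 5624. Total count scaling turned the sign of Vps35 (-0.11), Vps26b (-0.15), Vps29 (-0.09), Tmem87a (-0.16) and Srsf1 (-0.07), and put the all-gene median at -0.34. Without the numbers 976 and 982, the sign turned for Uchl3 (0.03) and Lrrk1 (0.12), and the cause was not tested. With replicates left out, Lrrk1 ran from -0.56 to 0.08, the log2 ratio of Lrrk2 to Park7 from -0.29 to 0.09, of Lrrk2 to Pla2g6 from -0.11 to 0.25, of Atp13a2 to Atp13a5 from -0.52 to 0.19 and of Vps35 to Vps29 from -0.07 to 0.04. The replicate block changed the call of Vps35 (0.18, adjusted p = 0.0226) and of no other of the 9 genes. For the ratios a paired sign-flip test of 5 numbers allows no p under 0.0625 and was read as values only. Depth limits Lrrk2, Pla2g6 and Fbxo7 in astrocyte fraction library 92, which rest on 105, 79 and 88 counts.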
